A study of Homo sapiens with 4 samples.

Results

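This account covers the genes of the Rab GTPases and of the TBC1D family of Rab inactivators in PC3, a long-established cell line from a human prostate cancer, after METTL3 knockdown. Members were the protein-coding genes of the deposited count table named RAB followed by a number (with an optional letter and digit) or TBC1D followed by a number. The rule found 106 of the 60544 genes in the table, 63 Rab and 43 TBC1D genes, without use of any measured value. The control group was PC3 cells labelled shNC and the knockdown group PC3 cells labelled sh812, with 2 libraries each. The series names METTL3 knockdown against control, and sh812, the remaining treatment label, was taken as the knockdown. All libraries came from poly(A) RNA of the same cell line, and nothing in the labels says that replicates were separate cultures, so p-values measure only the spread between these libraries, which may be technical.

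Rab proteins are small GTPases that give membranes of the cell their identity and direct vesicle formation, transport, tethering and fusion. A Rab is switched on by an exchange factor (GEF), which loads GTP and lets it bind effectors. It is switched off by a GTPase-activating protein (GAP), and most Rab GAPs carry the TBC domain that gives the TBC1D genes their name. Prenylation enzymes attach the lipid anchor of a Rab, and GDP dissociation inhibitors carry the inactive form through the cytosol. METTL3 catalyses the addition of N6-methyladenosine (m6A) to messenger RNA.

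Library totals ran from 31450648 to 37041330 counts. The targeted gene, METTL3, was counted 1682 and 1379 times in shNC and 269 and 313 times in sh812. The epithelial markers KRT8, KRT18 and EPCAM averaged 232, 154 and 73.2 CPM (counts scaled to a common library size) in shNC and 253, 190 and 99.8 CPM in sh812. KRT18 (adjusted p = 0.00793) and EPCAM (adjusted p = 0.000128) were called higher in edgeR. KLK3, which codes for prostate-specific antigen, had a count of 0 in every library. Of the single markers of other cell types, PTPRC (leukocytes) and PDGFRA (fibroblasts) averaged 0.675 and 1.05 CPM in shNC, and PECAM1 (endothelium) and COL1A1 (fibroblasts) averaged 23.7 and 38.5 CPM. In sh812 these 4 averaged 0.506, 0.875, 35.7 and 31.9 CPM, and PECAM1 was called higher (adjusted p = 0.000222 in edgeR). The part of these markers in the results was not tested. Transcript length also moved with the groups. Across 12696 genes the Spearman correlation between the log2 difference of the groups and the length of the longest coding transcript was -0.33, and it was -0.32 for shNC replicate 2 against replicate 1. Bulk RNA cannot tell a change in the number of cells of a kind from a change of RNA per cell.

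The sequences below show matches to a short METTL3 consensus in TBC1D30, the one member called higher, for comparison with TBC1D2B, which changed in the other direction. METTL3 methylates adenosines within a short consensus, of which GGACT, with T standing for U, is a common form. The motif GGACT was searched on the transcript strand of the longest coding transcript of each gene in GENCODE 29, and no m6A was measured here. The TBC1D30 transcript of 7433 bases held 4 matches, all in its 3′ UTR, and 1 of them lay within 200 bases of the stop codon. TBC1D2B held 9 matches in 6086 bases, of which 2 lay within 200 bases of the stop codon, 1 on either side. That was the most within this distance among the called members, so TBC1D2B does not stand for the lower ones. TBC1D9 had 1 match within it, and TBC1D23, RAB9B, RAB2B, RAB15, TBC1D16 and RAB3B had 0. Each line gives 25 bases in the DNA alphabet, 5′ to 3′, with the motif in capitals and the distance in bases from the end of the stop codon in its name.
TBC1D30 site +24: ctttgtatctGGACTcaccttttca
TBC1D30 site +2539: agaccagtatGGACTtgctatcttc
TBC1D30 site +2741: gtcagcctgtGGACTgcagctgttt
TBC1D30 site +4463: acctgaatggGGACTggtactgtag
TBC1D2B site -198: ttaaaatatgGGACTctttccttta
TBC1D2B site +23: ccatccgtgaGGACTtcctgcgtga

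TBC1D30 thus had 0.538 matches per kb. The median was 0.913 per kb over 16627 tested genes with a transcript sequence (quartiles 0.514 and 1.40) and 1.03 per kb over the tested members. The 8 members that were lower in sh812 ran from 0.272 per kb in TBC1D23 to 2.56 per kb in RAB15, with a median of 1.06. A match is a sequence description and does not show that a base is methylated.

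Of the 106 members, 81 passed the low-count filter and were tested, 52 Rab and 29 TBC1D genes. With edgeR's quasi-likelihood method and p-values adjusted by Benjamini-Hochberg over all 16802 genes tested, 9 of the 81 had an adjusted p under 0.05, 8 lower and 1 higher in sh812. Over all genes tested 10.8% were called, 5.42% lower and 5.43% higher. By family, 4 of 52 Rab genes (7.69%) and 5 of 29 TBC1D genes (17.2%) were called. All 4 called Rab genes (RAB9B, RAB15, RAB3B and RAB2B) and 4 of the 5 called TBC1D genes (TBC1D2B, TBC1D23, TBC1D9 and TBC1D16) fell, and TBC1D30 rose. Changes were mostly small: the median absolute log2 fold change was 0.104 over the tested members against 0.169 over all genes tested, and 63 of the 81 lay within 0.25 of 0. The median signed value was -0.016 for Rab genes and -0.059 for TBC1D genes, beside -0.006 over all genes tested. When libraries were scaled by their totals only, without TMM, these were -0.061, -0.104 and -0.050.

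**Figure D1:**
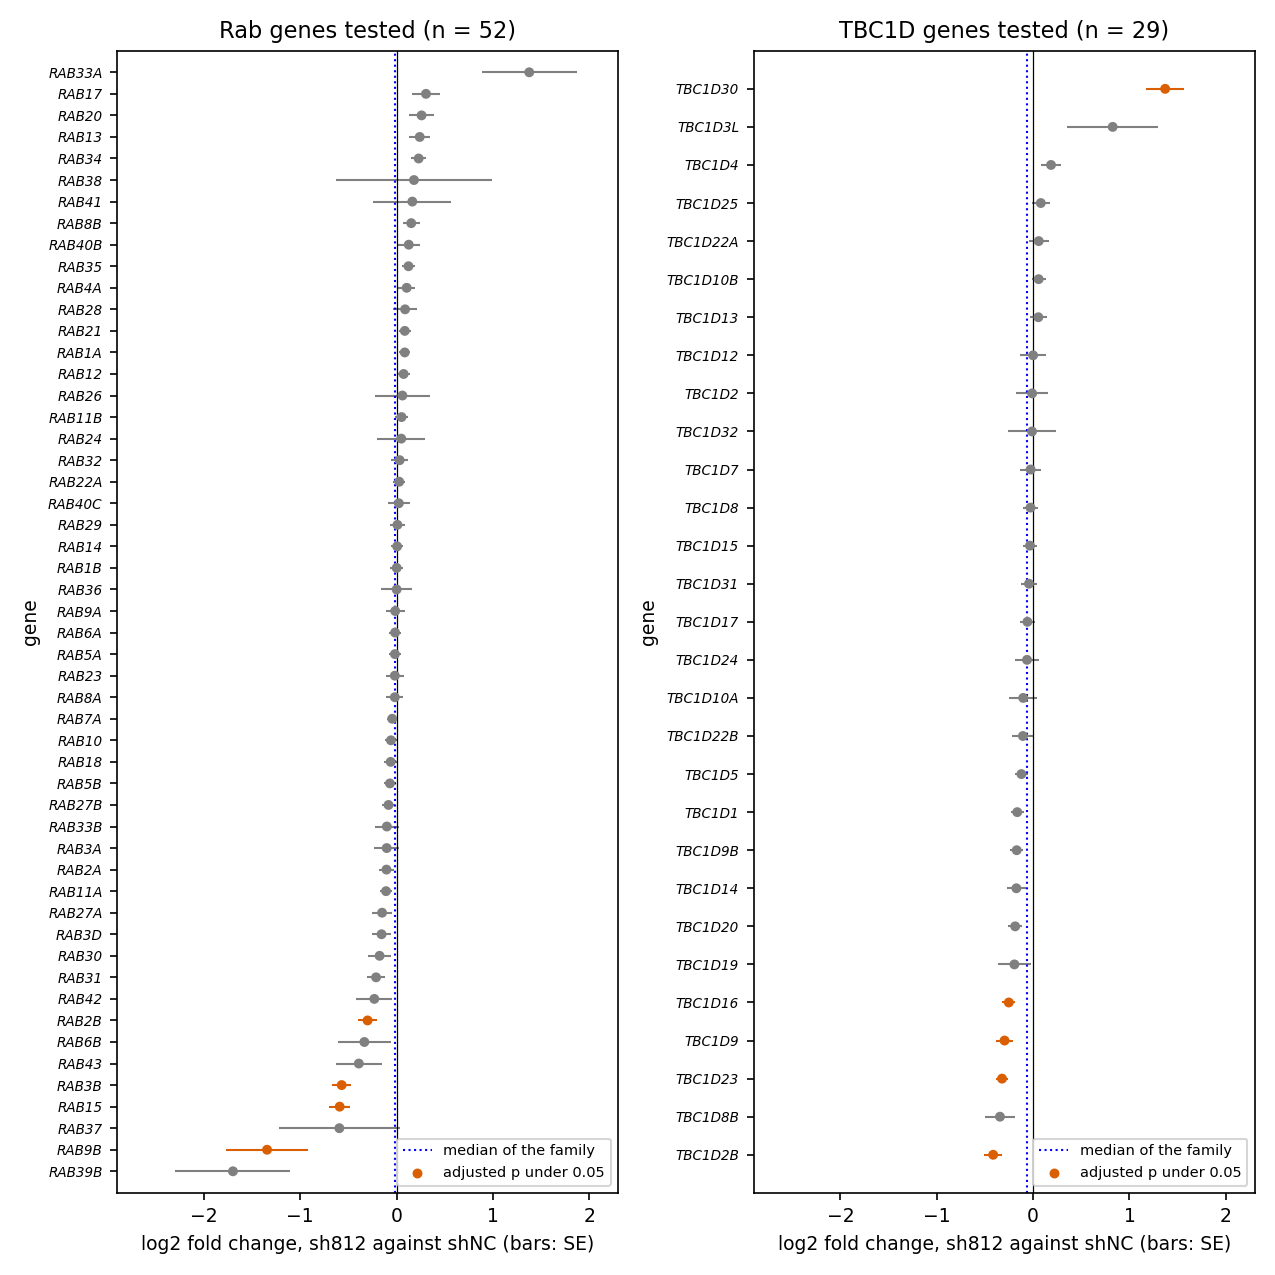
Log2 fold change of sh812 against shNC (horizontal axis) with its standard error for each tested Rab gene (left, n = 52) and TBC1D gene (right, n = 29), ordered by value. Orange marks an adjusted p under 0.05, the dotted line the median of the family. TBC1D30 stands at 1.37 at the top of its family, whose next member, TBC1D3L, has a wide error bar.

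TBC1D30 encodes a TBC-domain GAP that acts on RAB8A and limits the formation of primary cilia. It lies on the plus strand of chromosome 12, from 64780516 to 64881032 (GENCODE 29, GRCh38), and its exons share no base with another annotated gene. It was counted 123 and 78 times in shNC and 290 and 236 times in sh812, or 3.24 and 2.47 against 8.26 and 6.59 CPM. Both sh812 libraries were above both shNC libraries. On the log2 scale sh812 was higher by 1.37 (SE 0.20, adjusted p = 5.27e-05 in edgeR), a 2.58-fold difference. A processed pseudogene, RPL7P39, lies within its span on the opposite strand.

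Within its family TBC1D30 ranked 1 of 29 by fold change, and the other 28 ran from -0.415 in TBC1D2B to 0.826 in TBC1D3L, with a median of -0.061. The value for TBC1D3L (SE 0.47, adjusted p = 0.297 in edgeR) rests on 36 and 12 counts in shNC and 41 and 44 in sh812, and TBC1D3L belongs to a set of near-identical gene copies, so its counts are uncertain. As a share of all counts of TBC1D genes, TBC1D30 took 0.272% (95% exact binomial interval 0.226% to 0.325%) and 0.207% (0.163% to 0.258%) in the shNC libraries. It took 0.749% (0.666% to 0.840%) and 0.600% (0.526% to 0.681%) in the sh812 libraries. The intervals, which cover counting error only, did not overlap between the groups. TBC1D30 was still a minor transcript of the family, since per kilobase of exon it ranked 28 of 29 in shNC and 26 of 29 in sh812 (0.306 and 0.797 CPM per kb). TBC1D30 was chosen with its change known, so its distance from the family is a description with no test.

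The genes of the Rab proteins on which TBC1D30 has been reported to act did not pass the test of RNA counts. The proteins and their GTP-bound state were not measured. RAB8A, which drives transport to the plasma membrane and cilium, had 41.2 and 42.8 CPM in shNC and 44.7 and 38.2 CPM in sh812, with overlapping groups (log2 fold change -0.02, SE 0.09, adjusted p = 0.927 in edgeR). RAB3A, a Rab of regulated exocytosis, had 11.1 and 10.6 CPM in shNC and 10.1 and 10.2 CPM in sh812 (log2 fold change -0.10, SE 0.13, adjusted p = 0.693 in edgeR). RAB8A shares 37.8% of its exonic bases with an annotated gene on the opposite strand. Whether reads were counted by strand is not given in the sources used here.

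The 4 TBC1D genes that fell did so by less than the rise of TBC1D30. TBC1D2B, a relative of the RAB7 GAP TBC1D2, had 34.6 and 33.0 CPM in shNC and 27.1 and 23.6 CPM in sh812 (log2 fold change -0.41, SE 0.10, adjusted p = 0.00586 in edgeR). TBC1D23, a trans-Golgi adaptor for vesicles that arrive from endosomes, had 97.5 and 96.3 CPM in shNC and 76.2 and 78.7 CPM in sh812 (-0.32, SE 0.07, adjusted p = 0.00239). TBC1D23 itself lacks the catalytic residues of active GAPs. TBC1D9 had 35.4 and 34.0 CPM in shNC and 26.7 and 29.9 CPM in sh812 (-0.30, SE 0.09, adjusted p = 0.0374). TBC1D16, a GAP for the endosomal RAB4 and RAB5 proteins, had 101 and 91.8 CPM in shNC and 81.7 and 80.6 CPM in sh812 (-0.25, SE 0.07, adjusted p = 0.0186). In each of the 4 genes both sh812 libraries lay below both shNC libraries. The calls rested on single libraries in part: TBC1D23 had an adjusted p of 0.0934 in edgeR without sh812 replicate 1 and TBC1D2B one of 0.167 without sh812 replicate 2. TBC1D9 and TBC1D16 were each called only with shNC replicate 1, sh812 replicate 1 and sh812 replicate 2 all present, and their highest adjusted p was 0.456 and 0.192. These genes lie on chromosomes 15 (TBC1D2B, 77984036 to 78077724), 3 (TBC1D23, 100261000 to 100325251), 4 (TBC1D9, 140620765 to 140756120) and 17 (TBC1D16, 79932343 to 80035848).

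TBC1D2, TBC1D9B and TBC1D8B, relatives of these genes, did not pass the test, and the difference between relatives was not tested. TBC1D2 had 7.28 and 5.72 CPM in shNC and 6.52 and 6.43 CPM in sh812. TBC1D9B had 113 and 107 CPM in shNC and 95.9 and 99.5 CPM in sh812, without overlap (log2 fold change -0.17, SE 0.07, adjusted p = 0.0936 in edgeR). TBC1D8B, with 8.33 and 8.89 CPM in shNC and 7.32 and 6.23 CPM in sh812, did not overlap either (-0.34, SE 0.15, adjusted p = 0.158). Of the 29 TBC1D genes tested, 13 had groups that did not overlap, 11 with sh812 below shNC and 2 with it above. Of all genes tested, 53.6% had groups that did not overlap, 27.4% with sh812 below and 26.2% with it above. The TBC1D genes summed to 1192 and 1194 CPM in shNC and to 1103 and 1099 CPM in sh812, so the groups did not overlap. The Rab genes summed to 2815 and 2895 CPM in shNC and to 2814 and 2861 CPM in sh812, with overlap.

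Among Rab genes of secretion, RAB3B was the only one called, 1 of 11 tested in the group of exocytosis and secretory granule Rabs. RAB3B, which works in regulated exocytosis and lies on chromosome 1 (51907956 to 51990764), had 37.6 and 32.1 CPM in shNC and 22.9 and 24.0 CPM in sh812. The groups were well apart, and edgeR put the difference at -0.57 in log2 (SE 0.10, adjusted p = 0.000365). Its paralogue RAB3D had 25.1 and 23.3 CPM in shNC and 20.4 and 23.0 CPM in sh812 (-0.16, SE 0.10, adjusted p = 0.37). MADD, the main exchange factor for RAB3 proteins, fell as well, from 50.1 and 51.2 CPM to 36.5 and 37.3 CPM (-0.46, SE 0.08, adjusted p = 0.000477). RAB3GAP1, the catalytic subunit of the RAB3 GAP complex, had overlapping groups at 100 and 103 CPM in shNC and 108 and 101 CPM in sh812.

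RAB15, which controls recycling from early endosomes and lies on chromosome 14 (64945814 to 64973226), had 23.9 and 22.9 CPM in shNC and 16.0 and 15.0 CPM in sh812. The groups did not overlap (-0.59 in log2, SE 0.11, adjusted p = 0.000654 in edgeR), and RAB15 was the one called of 5 tested recycling endosome Rabs. RAB2B, a Golgi Rab on the same chromosome (21459020 to 21476973), had 29.1 and 26.4 CPM in shNC and 22.1 and 23.0 CPM in sh812 (-0.30, SE 0.10, adjusted p = 0.0476). It was 1 of 15 tested ER-Golgi and Golgi Rabs to be called, close to the threshold, and it was not called without shNC replicate 1, sh812 replicate 1 or sh812 replicate 2 (adjusted p = 0.21, 0.34 and 0.182 in edgeR). Its paralogue RAB2A had 60.4 and 68.2 CPM in shNC and 58.0 and 61.5 CPM in sh812, with overlap (-0.11, SE 0.08, adjusted p = 0.429).

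RAB9B, a paralogue of the late endosome Rab RAB9A, was scarce in all libraries. It lies on chromosome X (103822322 to 103832228) and had 81 and 50 counts in shNC and 14 and 38 counts in sh812, or 2.14 and 1.58 against 0.399 and 1.06 CPM. Its log2 fold change was -1.35 (SE 0.43, adjusted p = 0.0423 in edgeR), and without sh812 replicate 1 it was -0.81 with an adjusted p of 0.399. Without shNC replicate 1 it was -1.11 with an adjusted p of 0.177. RAB9A had 25.6 and 27.9 CPM in shNC and 24.9 and 27.9 CPM in sh812, with overlap. None of the 8 tested early endosome Rabs and none of the 5 other tested Rabs (RAB23, RAB28, RAB40B, RAB40C and RAB42) was called, and 1 of these 13 had an unadjusted p under 0.05 in edgeR, as did 4161 of all 16802 genes tested.

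**Figure D2:**
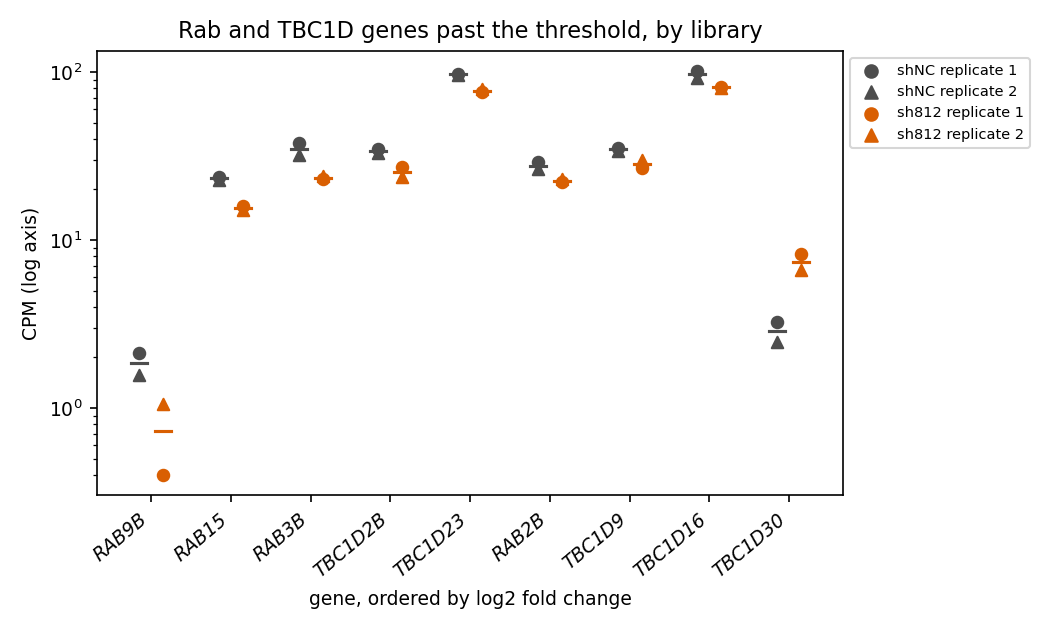
CPM (log axis) of the 9 called members in each library, with grey for shNC, orange for sh812, circles for replicate 1, triangles for replicate 2 and a bar for the group mean. Both sh812 libraries lie below both shNC libraries in 8 genes and above them in TBC1D30, and the RAB9B replicates are the farthest apart.

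Some members with wide differences were not called, and 3 are given here, chosen after their values were seen. RAB33A, a Golgi Rab, had 34 and 7 counts in shNC and 46 and 60 counts in sh812 (log2 fold change 1.38, SE 0.49, adjusted p = 0.0731 in edgeR). RAB39B, a Rab with roles in neurons, had 32 and 32 counts in shNC and 14 and 6 counts in sh812 (-1.70, SE 0.60, adjusted p = 0.0681). RAB34, a Rab of the Golgi and of cilium formation, was abundant at 88.8 and 107 CPM in shNC and 110 and 119 CPM in sh812 (0.23, SE 0.08, adjusted p = 0.0536). The RAB33A value depended on shNC replicate 2, being 0.74 without it and 2.73 (adjusted p = 0.00106) without shNC replicate 1. The RAB34 value was 0.37 without shNC replicate 2, with an adjusted p of 5.59e-07, and 0.10 without shNC replicate 1.

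Levels are compared between genes as CPM per kilobase of exon. RAB7A, the Rab of late endosomes and lysosomes, was the highest member at 84.7 in shNC and 82.0 in sh812. RAB10, of exocytosis, followed at 71.9 and 69.0, and RAB1A and RAB1B, which act between the endoplasmic reticulum and the Golgi, stood at 65.0 and 68.9 and at 51.3 and 51.3. The recycling Rabs RAB11B and RAB14 had 40.7 and 32.3 in shNC, and the early endosome Rabs RAB5A, RAB5B and RAB4A had 26.7, 19.7 and 13.1. RAB8A stood at 8.09, and the highest of the Rabs outside these groups were RAB23 at 6.24, RAB28 at 5.84 and RAB40C at 4.17 in shNC. RAB32, RAB12, RAB34 and RAB35 lay between 27.4 and 34.6 in shNC. None of these was among the 9 called members, although RAB34 was called higher without a low-count filter, with a mean CPM of at least 1, in limma-voom, with the replicate block and without shNC replicate 2, and RAB35 without shNC replicate 2. Within RAB27, whose products act in exosome release, RAB27B had 12.3 and RAB27A 3.41 CPM per kb in shNC. The TBC1D genes reached lower levels, with TBC1D23 highest at 18.7 in shNC and 15.0 in sh812, then TBC1D1 (13.4 and 11.9) and TBC1D5 (11.2 and 10.3).

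**Figure D3:**
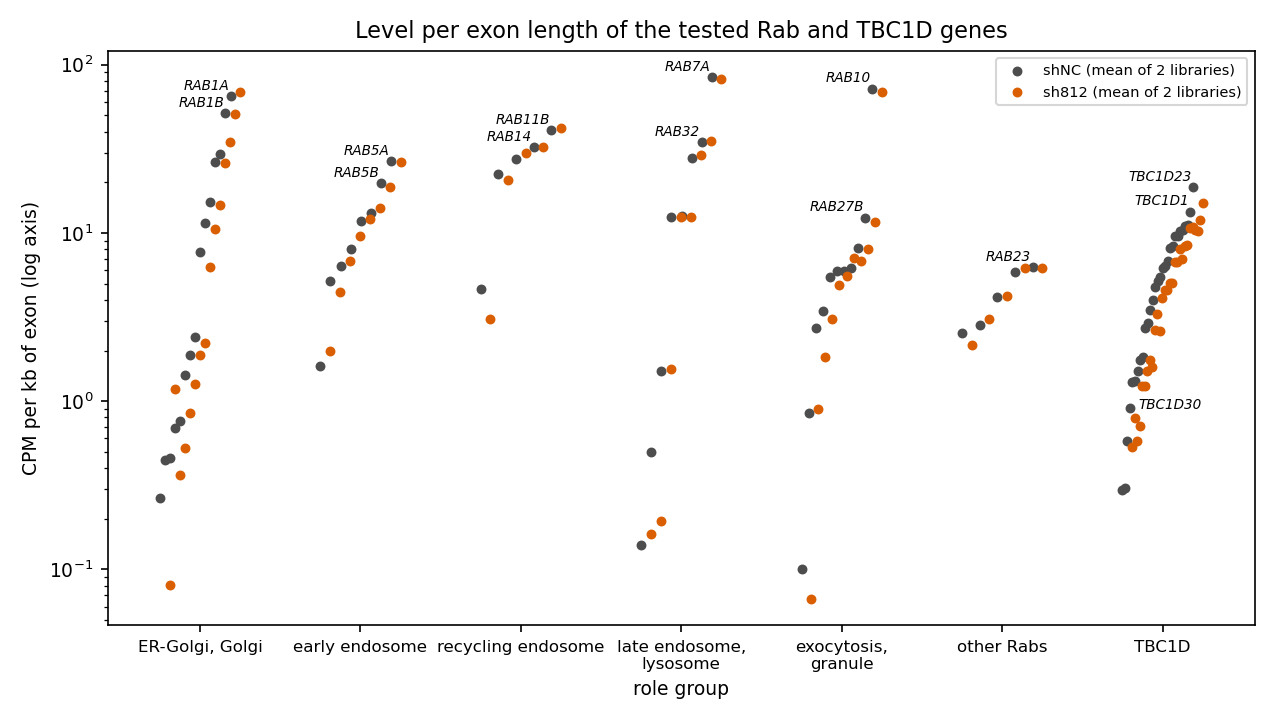
CPM per kb of exon (log axis) of the tested members by role group, with grey for the mean of 2 shNC libraries and orange for the mean of 2 sh812 libraries. RAB7A, RAB10 and RAB1A reach above 60, while TBC1D30 stays under 1 in both groups.

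Of the 25 members that were not tested, 13 had no count in any library. These were RAB44 and 12 TBC1D genes, among them TBC1D21, TBC1D26, TBC1D28 and most TBC1D3 copies, which cannot be told apart reliably by their reads. RAB25, a Rab of epithelial recycling, had 3 to 6 counts per library. RAB5C and RAB4B were also near the floor, with 8 to 11 counts and 0 to 15 counts per library, beside 3061 to 4761 counts for RAB5A and RAB5B and 1457 to 1766 for RAB4A. In GENCODE 29, 41.5% of the longest coding transcript of RAB5C lies within exons of the same-strand gene AC099811.2, and 67.4% of that of RAB4B within exons of RAB4B-EGLN2 or MIA-RAB4B. These 3 genes had a count of 0 in every library. RAB43, with 88.6% of its longest coding transcript shared with ISY1-RAB43 (also at 0), had 92 to 123 counts per library. How reads over shared exons were assigned is not given in the sources used here, and the part of the overlaps in these low counts was not tested.

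The rest of the Rab cycle was followed in a list of 121 genes, of which 117 were tested. Of these, 14 were called, 4 higher and 10 lower, where 10.8% of all genes tested were called. The median log2 fold change was -0.065. Among the 43 exchange factors tested, MADD and DENND2C were lower and RIN1 and TRAPPC4 higher. DENND2C, a DENN-domain exchange factor, had 4.53 and 4.30 CPM in shNC and 2.11 and 2.51 CPM in sh812 (-0.93, SE 0.23, adjusted p = 0.009 in edgeR). RIN1, an exchange factor for RAB5 proteins that also binds RAS, had 32.8 and 31.3 CPM in shNC and 40.9 and 39.8 CPM in sh812 (0.33, SE 0.09, adjusted p = 0.0126). TRAPPC4, a core subunit of the TRAPP complexes, had 52.3 and 55.1 CPM in shNC and 66.1 and 66.0 CPM in sh812 (0.30, SE 0.07, adjusted p = 0.00909).

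Of the 11 tested GAPs without a TBC1D name, RABGAP1 and USP6NL were lower. RABGAP1 had 30.6 and 30.7 CPM in shNC and 24.3 and 22.5 CPM in sh812 (-0.39, SE 0.09, adjusted p = 0.009 in edgeR). USP6NL, a GAP for RAB5 proteins, had 30.3 and 30.0 CPM in shNC and 21.2 and 26.1 CPM in sh812 (-0.35, SE 0.10, adjusted p = 0.0269). Among the genes of prenylation and GDP dissociation inhibition, CHM was lower. CHM, the escort protein that presents Rabs for prenylation, had 75.8 and 66.9 CPM in shNC and 58.7 and 61.5 CPM in sh812 (-0.25, SE 0.08, adjusted p = 0.0338). The prenylation enzyme genes RABGGTA and RABGGTB had log2 fold changes of 0.03 and -0.01.

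Of 49 tested effectors, 4 were lower and 1 higher. EEA1, the RAB5 effector that tethers early endosomes, had 34.5 and 28.4 CPM in shNC and 23.1 and 20.5 CPM in sh812 (-0.53, SE 0.11, adjusted p = 0.00174 in edgeR). OPTN, an autophagy receptor that binds RAB8, had 53.1 and 52.4 CPM in shNC and 37.9 and 41.2 CPM in sh812 (-0.41, SE 0.08, adjusted p = 0.00136). GOLGA2, a cis-Golgi matrix protein that binds RAB1, and ACAP2, a RAB35 effector, were lower by -0.37 (adjusted p = 0.00421) and -0.27 (adjusted p = 0.0113) in log2. RILPL2, an adaptor for RAB8 and RAB10 at the cilium, had 19.7 and 22.6 CPM in shNC and 25.5 and 28.2 CPM in sh812 (0.35, SE 0.10, adjusted p = 0.0305). RABL6, a Rab-like GTPase, had the largest difference of the 4 called higher, from 50.7 and 50.8 CPM to 73.5 and 72.2 CPM (0.52, SE 0.07, adjusted p = 2.99e-05). EEA1 shares 17.9% and TRAPPC4 15.6% of exonic bases with genes on the opposite strand, and RABGAP1 shares 12.4% with genes on its own strand and the longest coding transcript of RABL6 21.9%. Of the 14 called genes of the list, 9 lost their call without sh812 replicate 1 and 6 without sh812 replicate 2, while EEA1, MADD and RABL6 were called with any 1 of the 4 libraries left out.

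Because transcript length moved with the groups and between the shNC replicates, each result was set beside a fit with every library's trend on length removed. Over the tested members the Spearman correlation of log2 fold change with transcript length was -0.41 (n = 81 genes that share the same 4 libraries), and it was -0.52 over the Rab genes and -0.19 over the TBC1D genes. The 40 members with a transcript longer than the median of 3677 bases had a median log2 fold change of -0.09 with 6 called, and the 41 others a median of 0.00 with 3 called. With the trend removed, RAB3B (-0.47, adjusted p = 0.00111), RAB15 (-0.58, adjusted p = 0.000649), RAB2B (-0.32, adjusted p = 0.0332), TBC1D23 (-0.30, adjusted p = 0.00172) and TBC1D2B (-0.34, adjusted p = 0.0178) were still called. TBC1D30 was called as well, at 1.46 (adjusted p = 2.23e-05). RAB9B (-1.32, adjusted p = 0.052), TBC1D9 (-0.23, adjusted p = 0.096) and TBC1D16 (-0.16, adjusted p = 0.0954) were not. Of the 14 called genes of the Rab cycle list, 11 were called in the same direction and ACAP2, CHM and USP6NL were not, while GDI2 was gained.

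**Figure D4:**
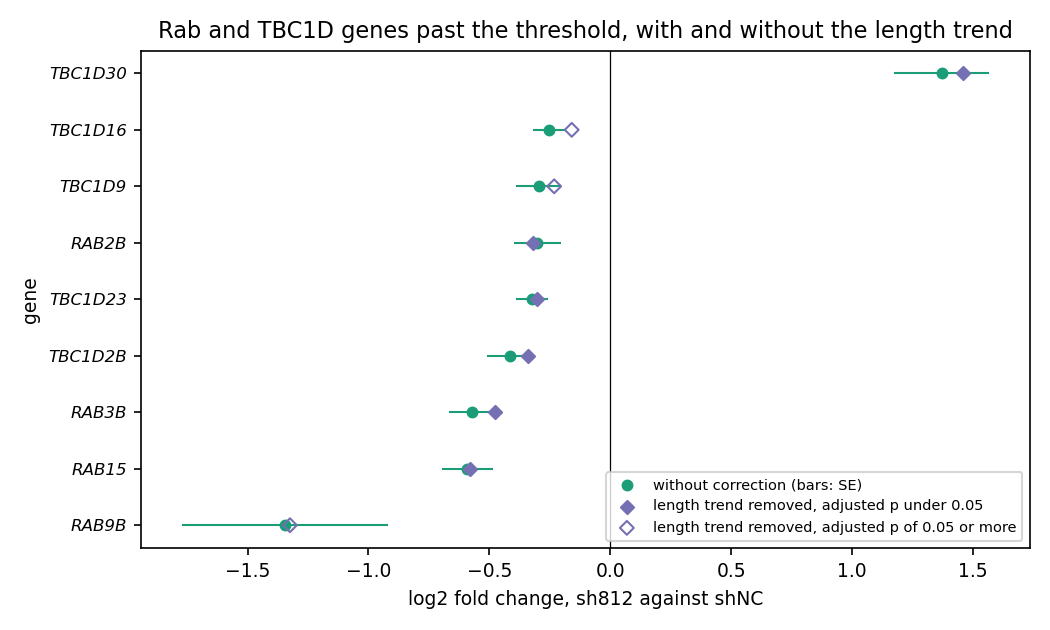
Log2 fold change of the 9 called members without correction (green, bars SE) and with each library's transcript length trend removed (purple diamonds, open where the adjusted p was 0.05 or more). TBC1D30 moved from 1.37 to 1.46, and RAB9B, TBC1D9 and TBC1D16 have open diamonds.

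The start sites of members were compared for short promoter motifs. A RefSeq sequence (GRCh38.p14) was matched by symbol for 85 members, and the 250 bases before the start were searched on both strands for 5 motifs: the TATA box TATAAA, the CCAAT box, the GC box GGGCGG, the E-box CACGTG and the cyclic AMP response element TGACGTCA. A match to 1 motif may overlap another match. No sequence was matched for TBC1D30, RAB15, TBC1D9 and TBC1D16 among the called members. CACGTG was found before 21 of the 85 members (24.7%) and before 7.87% of 15163 protein-coding genes. Of these 21, 10 were TBC1D3 copies that share much of their sequence. Among tested members it was found before 10 of 63 (15.9%), and these were RAB4A, RAB5A, RAB21, RAB24, RAB31, TBC1D3L, TBC1D8, TBC1D13, TBC1D15 and TBC1D20. None of the 10 was called, with a median log2 fold change of 0.01, against 5 of 53 without it and a median of -0.05. The GC box was found before 63.5% of members and 56.8% of genes, and the CCAAT box before 21.2% and 34.8%. The TATA box was found before 5.88% and 9.17%, and the cyclic AMP response element before 1.18% and 2.36%. The promoters of 3 members that fell and the RAB5A promoter, which holds the E-box, are printed below with the matches in capitals. They are RAB9B (minus strand, chrX:103832258-103832507), TBC1D23 (plus strand, chr3:100260742-100260991), TBC1D2B (minus strand, chr15:78077712-78077961) and RAB5A (plus strand, chr3:19946847-19947096), each 5′ to 3′.
RAB9B: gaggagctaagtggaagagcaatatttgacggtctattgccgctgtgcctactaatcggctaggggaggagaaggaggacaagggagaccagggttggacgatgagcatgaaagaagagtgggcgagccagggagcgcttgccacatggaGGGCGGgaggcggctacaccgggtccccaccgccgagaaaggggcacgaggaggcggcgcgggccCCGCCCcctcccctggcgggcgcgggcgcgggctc
TBC1D23: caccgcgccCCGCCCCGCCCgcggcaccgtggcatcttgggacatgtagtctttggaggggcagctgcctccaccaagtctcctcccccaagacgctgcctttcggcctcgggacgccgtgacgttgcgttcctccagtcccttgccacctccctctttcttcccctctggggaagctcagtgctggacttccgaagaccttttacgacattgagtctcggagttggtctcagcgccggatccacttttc
TBC1D2B: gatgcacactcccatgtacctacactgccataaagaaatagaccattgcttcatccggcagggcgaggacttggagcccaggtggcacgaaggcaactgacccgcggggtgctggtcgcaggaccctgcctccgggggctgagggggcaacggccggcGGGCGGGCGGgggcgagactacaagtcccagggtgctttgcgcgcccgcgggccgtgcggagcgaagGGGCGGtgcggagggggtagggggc
RAB5A: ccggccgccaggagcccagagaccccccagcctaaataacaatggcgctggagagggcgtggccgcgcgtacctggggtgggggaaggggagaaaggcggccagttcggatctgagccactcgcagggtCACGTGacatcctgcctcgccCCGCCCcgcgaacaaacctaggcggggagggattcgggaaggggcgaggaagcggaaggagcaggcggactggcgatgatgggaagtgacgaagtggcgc

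The capitals mark 2 GC boxes in RAB9B, 2 overlapping ones in TBC1D23 and 3 in TBC1D2B, of which 2 overlap. In RAB5A they mark the E-box and 1 GC box. The promoters of RAB2B and RAB3B, which also fell, were searched but are not printed. RAB2B held 1 CCAAT box and 1 GC box, and RAB3B held 3 GC boxes. These matches describe the letters of the windows only.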

How the data were processed

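Poly(A) RNA of 4 PC3 libraries was sequenced as paired reads of 150 bases on an Illumina instrument, per the labels' protocols. The values deposited by the authors are unnormalized read counts for each gene, with library totals from 31450648 to 37041330. The submitters' processing notes name fastp, STAR 2.7.1a, featureCounts, DESeq2 and build hg38; the annotation release and the strand setting are not given in the sources used here.

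The test was glmQLFTest after glmQLFit in edgeR 4.0.16 (R 4.3.3), on all 4 libraries with no covariate, after filterByExpr and TMM scaling, with Benjamini-Hochberg adjustment over 16802 genes and a threshold of 0.05. Fold changes use a prior count of 0.125. CPM use TMM-adjusted library sizes. Positions, exon lengths and transcripts come from GENCODE 29, in which all 106 members were found; bedtools 2.31.1 gave overlaps. Replicate pairs differed beyond sampling noise (chi-square per gene 8.43 in shNC and 4.51 in sh812) and were kept apart. On simulated counts (16433 genes, 200 of them changed), recovery was 87% for a log2 change of 1 and 77% for one of 0.5, with 8 false calls of 172. The changed genes were drawn above a minimum mean count that RAB9B, RAB33A, RAB39B and TBC1D3L did not reach. The recovery rates therefore do not cover such scarce genes, and the simulated counts held no trend on transcript length.

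Members and lists were chosen with earlier results of these data known. Named with values are TBC1D30, METTL3, all called members and list genes, the 3 highest members per role group, RAB3A and RAB8A; some results are not reported here; paralogues and RAB33A, RAB34, RAB39B, TBC1D3L, TBC1D8B, RAB3GAP1, RABGGTA and RABGGTB were added after their values were seen. Alternatives covered scaling, filters, DESeq2 1.42.0, limma-voom (limma 3.58.1), a replicate block, the length trend (lowess, span 0.3) and each library left out.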

Additional observations from a re-analysis of the deposited data

How the results depend on the processing

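TBC1D30 was called in each of 13 refits, with log2 fold changes from 1.20 to 1.59 (1.35 with a prior count of 2) and adjusted p-values in edgeR, DESeq2 or limma-voom from 2.57e-10 to 0.000312. RAB3B and RAB15 were also called in each of theirs. The number of Rab genes called was 4, and 2 with DESeq2, both lower, where RAB9B had no adjusted p. Rab genes called higher numbered 0, and 2 (RAB33A and RAB34) with a mean CPM of at least 1, limma-voom and the replicate block. Without a low-count filter, RAB33A and RAB34 were again the 2 called higher, RAB39B was gained as lower and RAB2B was lost. TBC1D genes called fell from 5 to 3, and those called lower from 4 to 2, with the length trend removed. With library size alone, 17 genes of the Rab cycle list were called lower against 10. Except for the length trend, whose removal is itself the change made, the cause was not tested.

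Leaving out a library leaves 1 sample in a group, which is assumed to vary like the others. Over all genes, 3252 were called without shNC replicate 2, 587 without sh812 replicate 1 and 682 without sh812 replicate 2, against 1822. Rab genes called then ran from 2 to 6, higher from 0 to 2 and lower from 2 to 4. TBC1D genes called ran from 2 to 7, higher from 1 to 2 and lower from 1 to 6. For the Rab cycle list the numbers were 5 to 27, higher 1 to 6 and lower 4 to 21, with the lowest without sh812 replicate 1 and the highest without shNC replicate 2. RAB2B lost its call under 6 refits, TBC1D9 under 5, TBC1D16 under 4 and RAB9B under 3. RAB9B was also not called with DESeq2, where it had no adjusted p. TBC1D23 lost its call without sh812 replicate 1 and TBC1D2B without sh812 replicate 2. Signs of uncalled genes turned when a library was left out: log2 fold changes ran from -0.10 to 0.066 for RAB9A, from -0.13 to 0.088 for RAB8A and from -0.16 to 0.18 for TBC1D2.

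Replicate numbers 1 and 2 occur in each group, but no label ties equal numbers together, and the correlation between deviations of equal-numbered libraries, taken over genes, was 0.0238. With the replicate block, 6 Rab and 5 TBC1D genes were called, and TBC1D30 had a log2 fold change of 1.38. With 2 libraries per group, small changes can be missed, and RAB9B, RAB33A and RAB39B rest on fewer than 100 counts per library.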
